A study of Mus musculus with 4 samples.

Results

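YAP and TAZ, the TEAD factors they bind and 6 genes that TEAD factors are known to switch on or that act back on the pathway were followed through the cells of a transplanted mouse mammary tumour. The 10 genes were taken by name: the coactivators Yap1 and Wwtr1 (which encodes TAZ), the DNA-binding partners Tead1 and Tead2, the target genes Ankrd1, Cyr61 and Ctgf, the pathway regulators Amotl2 and Lats2, which are themselves targets, and the receptor kinase Axl. All 10 were among the 23635 genes that the 4 count matrices list, and all 10 passed the filter on low counts in each of the 6 comparisons made.

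The tumours grew from Py8119, a mesenchymal carcinoma line that was derived from an MMTV-PyMT mammary tumour and serves as a model of triple-negative breast cancer. Control tumours (labelled NC, genotype control) gave 2 libraries. Tumours in which Sema4d, the gene of a membrane-bound semaphorin, was knocked down with a short hairpin RNA (shRNA) gave the other 2. Tissue was dissociated with enzymes and single cells were sequenced from droplets with unique molecular identifiers (UMIs), which count captured RNA molecules. The hairpin sequence, the time after transplantation and the age and strain of the recipients were not given in the sources used here, and neither was whether the 2 libraries of a group came from separate animals, so every p-value measures only the spread between these libraries.

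YAP and TAZ have no DNA-binding domain of their own and reach their genes through TEAD factors, which bind the motif GGAATG. The Hippo kinases, of which LATS2 is the last in the chain, phosphorylate YAP and TAZ and keep them out of the nucleus, while spreading on stiff matrix and actin tension favour the nuclear form. This control acts mainly on the proteins, so the RNA of the targets is the usual readout of YAP and TAZ activity, and in breast carcinoma cells that readout has been tied to mesenchymal and invasive behaviour.

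The promoters of 3 targets that co-varied in single tumour cells are shown as the 250 bases before the start of transcription, 5′ to 3′ on the gene's strand, from RefSeq (GRCm38.p6). Capitals mark GGAATG or its reverse complement CATTCC.
Ankrd1: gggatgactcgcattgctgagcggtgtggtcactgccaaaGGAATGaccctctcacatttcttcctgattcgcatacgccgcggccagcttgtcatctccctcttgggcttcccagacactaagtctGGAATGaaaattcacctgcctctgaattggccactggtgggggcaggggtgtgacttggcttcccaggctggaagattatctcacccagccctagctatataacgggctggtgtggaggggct
Cyr61: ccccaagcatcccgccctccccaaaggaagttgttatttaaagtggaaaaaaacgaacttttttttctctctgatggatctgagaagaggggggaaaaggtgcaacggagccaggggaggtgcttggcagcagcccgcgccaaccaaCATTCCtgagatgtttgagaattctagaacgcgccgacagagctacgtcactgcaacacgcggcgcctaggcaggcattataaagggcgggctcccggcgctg
Amotl2: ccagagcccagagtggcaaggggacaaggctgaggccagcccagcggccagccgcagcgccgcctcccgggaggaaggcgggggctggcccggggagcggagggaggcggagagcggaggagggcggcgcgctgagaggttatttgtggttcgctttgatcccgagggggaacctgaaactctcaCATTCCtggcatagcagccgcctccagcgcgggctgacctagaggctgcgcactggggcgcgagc
The Ankrd1 window (chr19:36119845-36120094, minus strand) held the motif at 210 and 123 bases before the start. The Cyr61 window (chr3:145649986-145650235, minus strand) held 1 reverse copy at 103 bases, and the Amotl2 window (chr9:102717554-102717803, plus strand) 1 reverse copy at 65 bases. A window of 300 bases, from 250 before to 50 after the start, was given for 8 of the 10 genes and not for Ctgf and Tead1. GGAATG on either strand was found for 7 of these 8 genes, against 14.7% of all 32851 promoter windows, and was not in the Tead2 window. The 8 genes had 10 such windows, and the second Lats2 window held no GGAATG. A count by gene is therefore not the same measure as a share by window. The AP-1 motif TGANTCA on either strand was in 0 of the 8, against 7.81% of all windows. These matches describe letters and do not show binding.

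The libraries held 45220 cells, from 10575 to 13173 each, with 83513906 to 119758159 UMIs per library. After filters and the removal of likely doublets 42359 cells were used. Clusters were named from marker genes: the share of tumour-like cells was 52.4% and 50.9% in the controls and 73.5% and 68.5% with the shRNA, and that of macrophage or monocyte-like cells 30.7% and 38.5% against 17.6% and 17.7%, although the labels name tumour cells only. In tumour-like cells 8 of 12 tumour markers reached 20 CPM (a gene's UMIs in the summed cells of a class, on the usual counts-per-million scale), and Krt7 was near 0. The files number their cells without barcode sequences, so shared barcodes could not be counted. Sema4d in tumour-like cells was 6.68 and 7.43 CPM in the controls and 3.84 and 5.49 in the shRNA libraries, a log2 change of -0.54 ± 0.18 (SE) that did not pass the test (adjusted p = 0.280), so the knockdown stood in the direction of the labels without passing.

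Tumour-like cells carried the RNA of both coactivators. Yap1 (chr9:7931999-8004596, GRCm38, minus strand) was at 44.4 and 46.3 CPM in the controls and 42.2 and 44.9 in the shRNA libraries. Wwtr1 (chr3:57455649-57575910, minus strand) was at 218 and 238 against 227 and 239. For both genes the groups overlapped and the 4 libraries lay close together. The log2 changes were -0.01 ± 0.08 (SE) for Yap1 and 0.08 ± 0.08 for Wwtr1, with adjusted p of 0.982 and 0.746 from edgeR's quasi-likelihood test. A Yap1 UMI was found in 33.4% to 36.2% of tumour-like cells per library and a Wwtr1 UMI in 76.4% to 78.8%.

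The TEAD genes were as even. Tead1 (chr7:112679318-112906807, plus strand) measured 69.8 and 69.8 CPM in the controls and 75.2 and 69.7 in the shRNA libraries, and Tead2 (chr7:45215753-45233644, plus strand) 30.1 and 30.5 against 26.9 and 30.7. The second shRNA library lay at the control level for Tead1, and the groups overlapped for both genes. The log2 changes were 0.10 ± 0.08 (SE; adjusted p = 0.635) and -0.02 ± 0.10 (adjusted p = 0.948). Both encode factors with the TEA DNA-binding domain that recognise the same motif.

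The target genes spread more, and the spread lay between the shRNA libraries. Ankrd1 (chr19:36111961-36120099, minus strand), which encodes a small ankyrin-repeat protein of the nucleus and the sarcomere and is a standard YAP target, was at 187 and 199 CPM in the controls and 193 and 261 in the shRNA libraries. Cyr61, also called Ccn1 (chr3:145646976-145649981, minus strand), and Ctgf, also called Ccn2 (chr10:24595442-24598683, plus strand), encode secreted matricellular proteins. Cyr61 measured 223 and 242 against 221 and 309. In both genes the first shRNA library was at the control level and the second above it. Ctgf measured 32.8 and 28.0 CPM in the controls and 20.6 and 35.0 in the shRNA libraries, so that these lay on either side of both controls. The log2 changes were 0.28 ± 0.15 (SE) for Ankrd1, 0.24 ± 0.17 for Cyr61 and -0.08 ± 0.32 for Ctgf, and none passed (adjusted p = 0.505, 0.632 and 0.948).

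Of the regulators, Amotl2 (chr9:102716672-102733418, plus strand), an angiomotin family protein that holds YAP and TAZ at cell junctions, was the 1 gene of the 10 whose groups did not overlap. It measured 45.1 and 42.8 CPM in the controls and 31.6 and 41.2 in the shRNA libraries, both lower, with a log2 change of -0.22 ± 0.13 (SE; adjusted p = 0.559). Over all genes tested, 30.7% had both shRNA libraries below both controls and 13.4% had both above. Here and below, overlap was read on CPM without the TMM scaling between libraries that the test applies. On that unscaled CPM the log2 difference of Amotl2 was -0.28, so its lack of overlap need not hold on the scale of the test. Lats2 (chr14:57689662-57758388, minus strand) measured 14.8 and 15.6 against 13.3 and 14.9, and Axl (chr7:25757273-25788705, minus strand), a receptor tyrosine kinase that binds GAS6, 195 and 190 against 197 and 191. Both overlapped between groups, with log2 changes of -0.05 ± 0.10 and 0.06 ± 0.08.

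In tumour-like cells as a whole 0 of the 10 genes passed the test at an adjusted p under 0.05, where 0.482% of all 14511 genes tested did. At an unadjusted p under 0.05 the count was 0 as well, where 1839 of all genes were, and DESeq2 also called 0, where it called 271 of all genes. The median log2 change was 0.03 over the 10 genes and 0.01 over all genes. Taken on log2 CPM without TMM scaling, the gap between the 2 shRNA libraries was wider than that between the group means for 10 of 10 genes. The log2 changes of the test are TMM-scaled, so the count need not hold on their scale. How many of all genes had such a wider gap was not counted. Which shRNA library was used decided the call, in fits where the lone library was taken to vary like the controls. Without the first one the log2 changes of Ankrd1 and Cyr61 were 0.50 (adjusted p = 0.00288) and 0.48 (adjusted p = 0.00529). Without the second one Ctgf and Amotl2 were at -0.53 (adjusted p = 0.00740) and -0.44 (adjusted p = 0.00743). The share of mitochondrial UMIs in tumour-like cells was 0.710% and 0.673% in the controls and 0.304% and 0.419% in the shRNA libraries, and its part in these values was not tested.

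Outside the tumour the genes had other homes. In macrophage or monocyte-like cells Yap1 was at 2.77 to 5.26 CPM over the 4 libraries, Wwtr1 at 10.8 to 15.03, Tead1 at 4.56 to 6.43, Tead2 at 1.62 to 2.18, Ankrd1 at 6.38 to 9.75, Cyr61 at 14.0 to 22.9, Ctgf at 1.65 to 2.77 and Amotl2 at 2.40 to 3.73. Each of these was from 3.37% to 11.7% of the tumour-like level of the same gene and library. The epithelial keratins Krt8 and Krt18 and the imprinted RNA H19, tumour markers that macrophages do not make, were at 4.27% to 9.29% of their tumour-like level in the same macrophages. The 8 members lay in or near that range, and whether their counts came from free tumour RNA was not tested. Yap1 in the second shRNA library, at 11.7%, was above the range of those markers. Ankrd1 was below it in the controls (3.41% and 3.37%) and in the second shRNA library (3.74%). A UMI of Ankrd1 was found in 2.75% to 3.90% of macrophages against 36.8% to 47.2% of tumour-like cells, at median depths of 3646.5 to 4168.5 and 8795 to 10636.5 UMIs per cell.

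Axl and Lats2 stood above the range of those tumour markers in macrophages. Axl measured 99.1 and 120 CPM in the macrophages of the control libraries and 108 and 112 in those of the shRNA libraries, which was 50.7% to 63.5% of its tumour-like level. Lats2 measured 16.2 and 15.2 against 12.3 and 16.9, or 92.4% to 114% of its tumour-like level. AXL is a receptor that macrophages use to take up dying cells. After thinning every cell to 1000 UMIs, an Axl UMI was found in 9.09% to 10.6% of macrophages and 16.1% to 17.01% of tumour-like cells, where the shares before thinning were 33.7% to 36.7% and 68.8% to 74.8%.

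Dendritic, fibroblast, endothelial and mammary epithelial-like cells numbered 15 to 152 per library, with at most 168 UMIs of any member, and are given as levels only. Endothelial-like cells had 288 to 430 CPM of Wwtr1, above the 218 to 239 of tumour-like cells in every library, and 214 to 504 of Cyr61. Their Ctgf ran from 46.5 to 483, and that of fibroblast-like cells from 11.1 to 621, the lowest of these from 5 and 1 UMIs, so the libraries did not settle a level. Fibroblast-like cells had 236 to 322 CPM of Axl and 55.5 to 120 of Amotl2, both above the tumour-like range. Mammary epithelial-like cells had the highest Yap1 (50.8 to 102) and Tead2 (32.3 to 106) of the named classes by mean, and little Amotl2 (0 to 20.4). T and NK-like cells had 2 of the 4 libraries at 32.5 and 45.3 CPM of Wwtr1 and the others at 7.12 and 17.6, and their H19, a tumour RNA, ran in the same order from 8.55 to 102.

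**Figure D1:**
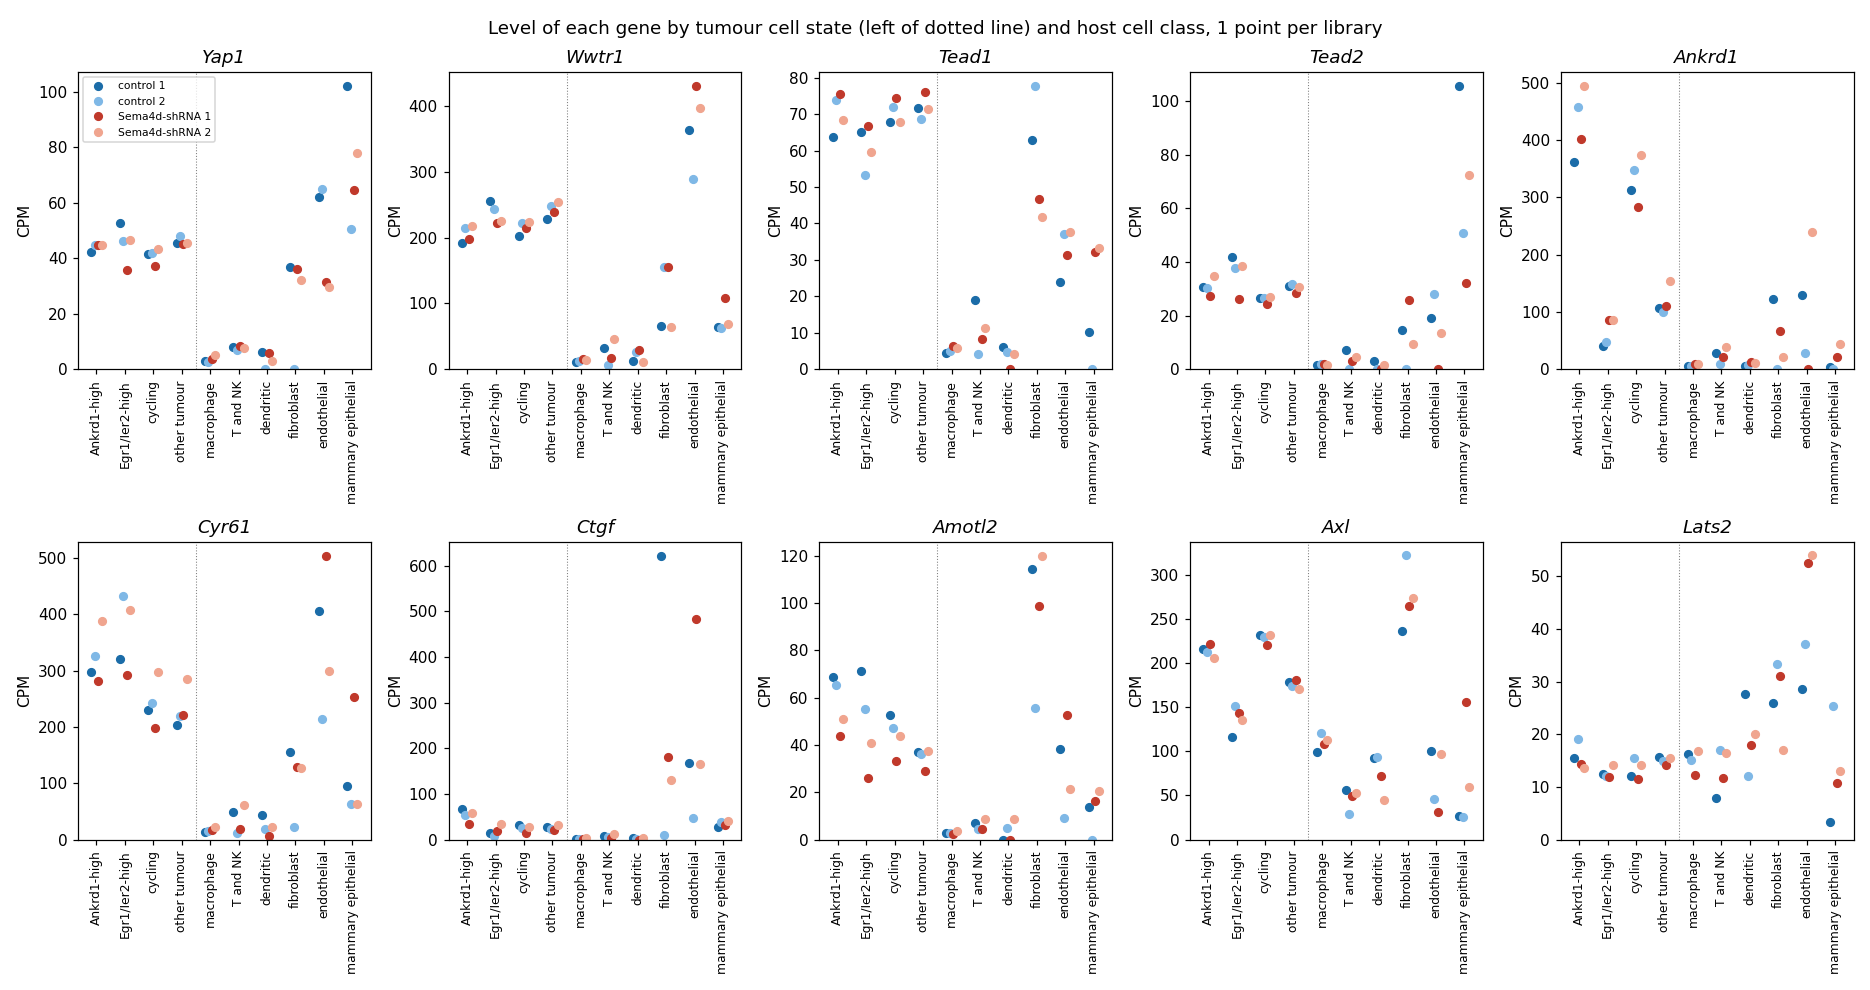
Level of each member in CPM by tumour cell state (left of the dotted line) and host cell class (right), 1 point per library, controls in blue and shRNA libraries in red. Every member but Axl and Lats2 is near 0 in macrophages, and the points of the rare classes are far apart (Ctgf from 11.1 to 621 in fibroblast-like cells).

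Within the tumour, cells were sorted into 3 states by the leading genes of their clusters, and all others were called other tumour-like. These others, the reference of the ratios below, included a mitotic cluster led by Rad51b and Cdc20. It had 2 cycling markers among its 20 top genes, under the limit of 3, and a mean of 322 CPM of Ankrd1. Ankrd1-high cells, whose cluster Ankrd1 and Ctgf lead, were 11.2% and 11.9% of tumour-like cells in the controls and 7.24% and 13.7% in the shRNA libraries. Egr1/Ier2-high cells, led by immediate early genes, were 1.27% and 1.46% against 3.04% and 4.02%. Cycling cells, led by histone and mitotic genes, were 14.4% and 12.5% against 22.2% and 16.7%. Since 4 of the 10 genes were among the variable genes used to cluster, the levels of a state describe how it was drawn and carry no test.

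Ankrd1-high cells had 362, 457, 401 and 494 CPM of Ankrd1 (control 1, control 2, shRNA 1, shRNA 2), on average 3.70 times the level of other tumour-like cells of the same library. Ctgf was at 2.08 times (1.57 to 2.54 over the libraries), Amotl2 at 1.63 times (1.36 to 1.85), Cyr61 at 1.39 times (1.27 to 1.48) and Axl at 1.21 times (1.20 to 1.22). The coactivator and TEAD genes did not follow their targets: Wwtr1 was lower, at 0.847 times (0.830 to 0.862), Yap1 at 0.960 times (0.928 to 0.993), and Tead1 and Tead2 were at 0.979 and 1.01 times with libraries on both sides of 1. When the cells were clustered again without the members and the other listed genes, a cluster with Ankrd1 second among its leading genes, after Mvd, was found. It had means of 347 CPM of Ankrd1, 272 of Cyr61 and 41.3 of Ctgf, against 429, 324 and 53.8 in the Ankrd1-high cells used here, and Ctgf was not among its 10 top genes.

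Cycling cells shared the higher Ankrd1, Amotl2 and Axl and the lower Yap1 and Wwtr1, but not the higher Ctgf and Cyr61. Their Ankrd1 was at 2.85 times (2.42 to 3.49) the level of other tumour-like cells, Axl at 1.30 times (1.22 to 1.36) and Amotl2 at 1.26 times (1.14 to 1.42). Ctgf was at 0.979 times (0.703 to 1.19) and Cyr61 at 1.04 times (0.893 to 1.13), both with libraries on either side of 1. Yap1, Wwtr1 and Tead2 were lower in all 4 libraries, at 0.892, 0.891 and 0.860 times.

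In Egr1/Ier2-high cells Cyr61 was high and Ankrd1 low. Their Cyr61 was at 1.57 times (1.32 to 1.97) the level of other tumour-like cells, and their Ankrd1 at 0.551 times (0.376 to 0.783). Axl was at 0.777 times (0.651 to 0.873) and Lats2 at 0.838 times (0.793 to 0.913), each lower in all 4 libraries. Ctgf and Amotl2 differed in direction between libraries. CYR61 is itself an immediate early gene, and EGR1 and IER2 belong to the same rapid response.

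At the finer level of 10 tumour clusters the targets peaked in different places. Ankrd1 was highest in the Ankrd1-high cluster, with a mean of 429 CPM over the 4 libraries, followed by the cycling cluster (329) and the mitotic cluster led by Rad51b and Cdc20 (322), and was lowest in the cluster led by Mgp, Hopx and Ogn (53.7). Cyr61 was highest in the cluster led by Postn and Hsd11b1 (477 ± 79.4, SD, n = 4), where Ankrd1 was 55.7, and lowest in the Mgp cluster (104). Ctgf was high in both the Ankrd1-high cluster (53.8) and the Postn cluster (46.1). The Mgp cluster, low in both Ankrd1 and Cyr61, made up 20.6% and 23.7% of tumour-like cells in the controls and 4.77% and 6.04% in the shRNA libraries, and its part in the group values of these genes was not tested. A small cluster led by the nuclear RNAs Malat1 and Neat1, with a median of 2888 UMIs per cell, had the highest level of 6 of the 10 genes, among them Tead1 (330), Wwtr1 (362) and Lats2 (56.3).

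**Figure D2:**
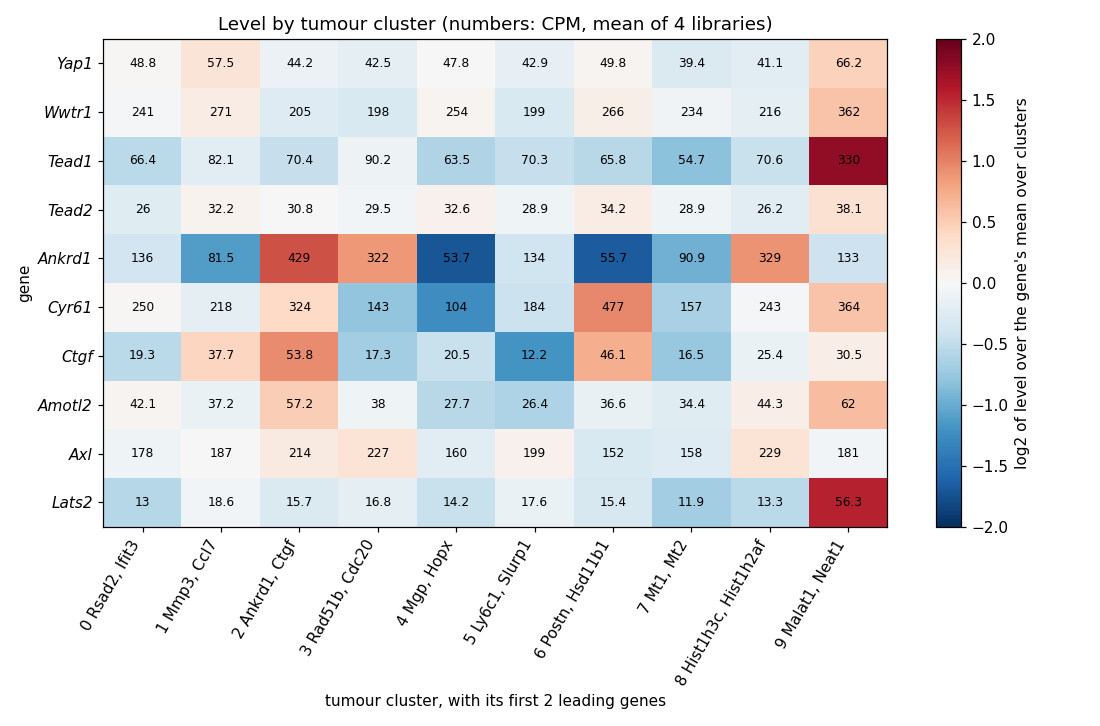
Mean level of each member over the 4 libraries in each of the 10 tumour clusters, with the level in CPM in each cell and its log2 ratio to the gene's mean over the clusters as colour. Ankrd1 and Cyr61 peak in different clusters (429 and 477 CPM at their highest), and the cluster led by Malat1 and Neat1 is highest in Tead1 and Lats2.

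Single tumour cells showed a like split between 4 of the targets, Ankrd1, Cyr61, Ctgf and Amotl2, and the coactivator and TEAD genes. Each of 22056 tumour-like cells was thinned to 4000 UMIs, which left out 4054 shallower cells, and Pearson's r was taken on log2(UMIs + 1) within each library. Cells of 1 library share their library and ambient RNA, so the values are descriptions. Among Ankrd1, Cyr61, Ctgf and Amotl2 all 6 pairs were positive in all 4 libraries. The highest mean r was that of Cyr61 and Ctgf, 0.182 (0.127 to 0.215 over the libraries), followed by Ankrd1 and Cyr61 with 0.140 (0.0802 to 0.169), Ankrd1 and Ctgf with 0.123 (0.0769 to 0.147) and Ankrd1 and Amotl2 with 0.120 (0.102 to 0.131). In each of the 6 pairs the lowest value was that of the first shRNA library. Axl and Lats2 did not follow these 4 genes throughout. The mean r of Axl was 0.0902 with Ankrd1 (0.0723 to 0.113), but -0.0011 with Cyr61, 0.0033 with Ctgf and 0.0152 with Amotl2. That of Lats2 was 0.0321 with Ankrd1, 0.0224 with Cyr61, 0.0329 with Ctgf and 0.0312 with Amotl2. Within Ankrd1-high and other tumour-like cells the 6 pairs were positive in every library as well, and Cyr61 and Ctgf had a mean r of 0.179 and 0.183. In cycling cells Cyr61 and Ctgf had 0.165, while Cyr61 and Amotl2 and Ctgf and Amotl2 reached -0.0031 and -0.0153 in their lowest library. In the few Egr1/Ier2-high cells the libraries disagreed: the mean r of Cyr61 and Ctgf was 0.0252, from -0.314 to 0.192, and of the 6 pairs Ankrd1 and Ctgf alone was positive in all 4 (0.102 to 0.319).

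The coactivators showed almost none of this. The mean r of Yap1 with each of the 4 targets lay within 0.01 of 0, that of Wwtr1 with Ankrd1 was -0.0472, and that of Tead1 with Ankrd1 was 0.0463. Thin sampling lowers r, and thinned cells held on average 0.166 to 0.183 UMIs of Yap1 per library. Ctgf and Amotl2 had 0.0884 to 0.144 and 0.122 to 0.169. How far sampling lowered r for each gene was not tested. Wwtr1 had 0.861 to 0.984 UMIs per thinned cell.

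**Figure D3:**
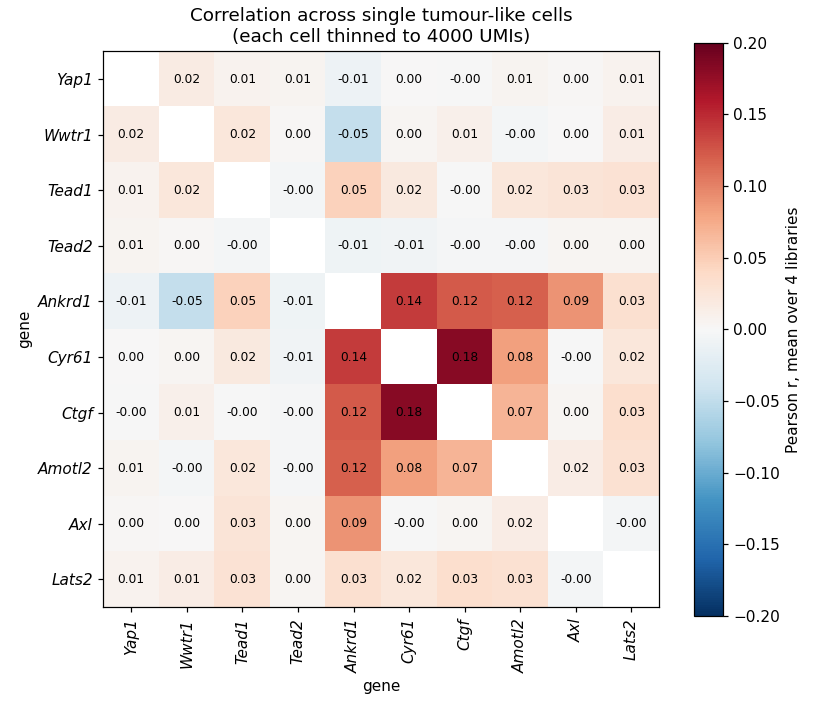
Mean Pearson's r over the 4 libraries between each pair of members in tumour-like cells thinned to 4000 UMIs, on log2(UMIs + 1). The highest value, 0.182, lies in the block of Ankrd1, Cyr61, Ctgf and Amotl2. Ankrd1 and Axl (0.0902) lie above Cyr61 and Amotl2 (0.0828) and Ctgf and Amotl2 (0.0678) of that block. The rows of Yap1, Wwtr1 and Tead2 are near 0 or below.

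The same relation read as levels was graded. Cells with 0, 1, 2 to 3, and 4 or more Ankrd1 UMIs after thinning numbered 15175, 3366, 2246 and 1269. From the first bin to the last, the mean Ctgf level was 21.9, 34.9, 49.1 and 79.4 CPM, Amotl2 30.8, 46.1, 56.7 and 76.8, and Cyr61 226, 259, 329 and 439. Axl went from 173 to 243 and Tead1 from 64.7 to 85.1, Yap1 was between 40.1 and 44.2 in every bin, and Wwtr1 went down from 243 to 198. In cells binned by Ctgf, the 20159 cells with none had 231 CPM of Cyr61 and 165 of Ankrd1, the 1427 with 1 Ctgf UMI had 426 and 300, and the 420 with 2 or 3 had 626 and 359.

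**Figure D4:**
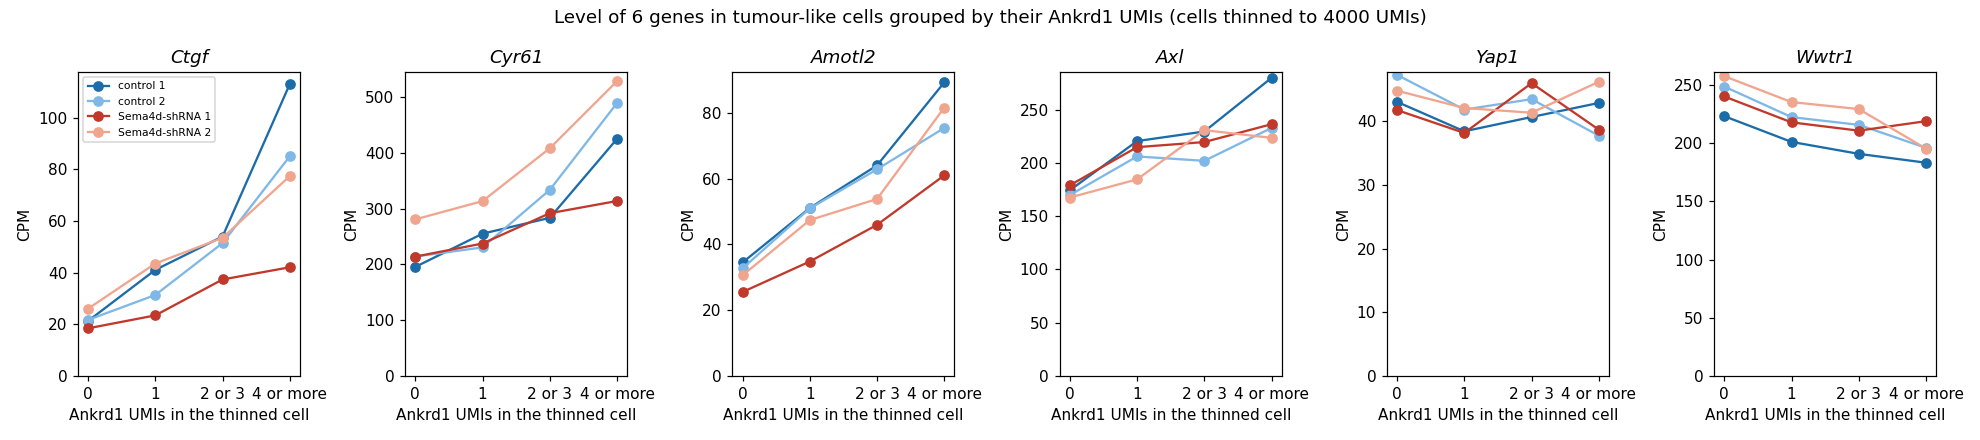
Level of 6 members in CPM in tumour-like cells grouped by their number of Ankrd1 UMIs after thinning to 4000, 1 line per library. In every library Ctgf, Amotl2 and Cyr61 are higher in each further bin (Ctgf at 21.9 in the first and 79.4 in the last on average), and Wwtr1 is lower in the last bin than in the first (198 and 243 on average).

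The genes most like each target placed Ankrd1 and Cyr61 in different company. Likeness was the mean r over the 4 libraries among 6030 other genes with a UMI in at least 5% of thinned cells. Cyr61 ranked highest with the immediate early genes Fos (0.307), Jun (0.307) and Ier2 (0.273), followed by Cited2, Egr1 and Junb, with Ctgf as the seventh and Ankrd1 at rank 16. Ankrd1 ranked highest with Actb (0.299), which encodes beta-actin, Hbegf (0.285), an EGF receptor ligand, and Tnfrsf12a (0.269), the receptor of TWEAK, followed by H2afz, Ncl, Ccnd1, Eif5a and Ran. Ctgf had Cyr61 first and Ankrd1 at rank 3, with Fam101b, Clu, Wisp1 and Cited2 also among its 8 most like genes, and Amotl2 had Ankrd1 first. The reverse did not hold. Among the genes most like Ankrd1 the first other member was Cyr61 at rank 96, followed by Ctgf at 139, Amotl2 at 151 and Axl at 345.

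The comparison of control with Sema4d-shRNA tumours was repeated inside each state. In Ankrd1-high cells 0 of the 10 genes passed, where 0.405% of 11124 genes did, and 2 of the 10 had both shRNA libraries below both controls, where 23.3% of all genes did (13.0% had both above, and 0 of the 10). Amotl2 was the largest of these, with 68.6 and 65.4 CPM in the controls and 44.0 and 50.9 in the shRNA libraries. Both shRNA libraries were lower by more than either pair differed within itself, with a log2 change of -0.46 ± 0.12 (SE; adjusted p = 0.170, unadjusted 0.00124). The call depended on the filter: with no filter on low counts the adjusted p was 0.0252, and when each library was left out in turn it ran from 0.0618 to 0.828. The other was Lats2, at 15.6 and 19.2 against 14.4 and 13.7 (log2 change -0.27 ± 0.16, adjusted p = 0.838). Ctgf, at 67.6 and 54.1 against 34.2 and 59.2, overlapped. At an unadjusted p under 0.05 the count was 1, where 759 of all 11124 genes were. DESeq2 called 0 of the 10 and 42 over all genes.

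In Egr1/Ier2-high cells 1 of the 10 genes passed, as higher with the shRNA, where 0.267% of 8249 genes passed in either direction. This state leaves out cells already counted as Ankrd1-high or cycling, the states with the most Ankrd1. Its Ankrd1 level therefore depends on that removal. The whole finer cluster was 1.99% and 1.96% of tumour-like cells in the controls and 3.68% and 4.95% in the shRNA libraries. After the removal 1.27% and 1.46% against 3.04% and 4.02% were left. Ankrd1 was at 40.3 and 48.2 CPM in the controls and 86.8 and 86.6 in the shRNA libraries. These levels came from 26 and 28 UMIs in 68 and 74 cells and from 211 and 244 UMIs in 221 and 339 cells. The groups were far apart, with a log2 change of 1.05 ± 0.22 (SE; adjusted p = 0.0347 by edgeR's quasi-likelihood test), and it was the 1 call for a member in any of the 6 comparisons. It did not hold with DESeq2 (adjusted p = 0.321) or without the first control, first shRNA or second shRNA library (0.181, 0.0674 and 0.0580). With the state drawn only from the finer clustering, so that cells counted here as Ankrd1-high or cycling stayed in it, the log2 change was -0.037 (adjusted p = 0.974).

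Another 3 members did not overlap between groups in that state, where 13.8% of all genes had both shRNA libraries higher and 24.9% both lower. Ctgf was at 15.5 and 6.88 CPM in the controls and 18.1 and 33.4 in the shRNA libraries, from 10, 4, 44 and 94 UMIs, with a log2 change of 1.26 ± 0.44 (SE; adjusted p = 0.450). Amotl2 was at 71.3 and 55.1 against 25.9 and 40.8, with a log2 change of -0.84 ± 0.26 (adjusted p = 0.332). Its direction was that of Ankrd1-high cells, and with the state drawn only from the finer clustering it was -0.83 with an adjusted p of 0.0464. Wwtr1 was at 256 and 243 against 221 and 226 (log2 change -0.08 ± 0.14).

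In cycling cells 0 of the 10 genes passed, where 0.221% of 12198 did, with 1 at an unadjusted p under 0.05 and 0 by DESeq2. Over all genes these counts were 891 and 57. The 1 member under the unadjusted p was Amotl2, at 52.8 and 47.2 CPM in the controls and 33.1 and 44.0 in the shRNA libraries, both lower (log2 change -0.33 ± 0.14, SE, adjusted p = 0.627). It alone did not overlap, where 27.2% of all genes had both shRNA libraries lower and 11.2% both higher. Ankrd1 was at 313 and 347 against 283 and 373, on either side of the controls.

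In other tumour-like cells 0 of the 10 passed, where 0.424% of 13664 did, with 0 at an unadjusted p under 0.05 and 0 by DESeq2. Over all genes these counts were 1608 and 199. Ankrd1 was at 107 and 99.4 CPM in the controls and 111 and 154 in the shRNA libraries (log2 change 0.41 ± 0.17, SE, adjusted p = 0.429). Cyr61 was at 204 and 220 against 222 and 286 (log2 change 0.31 ± 0.14, adjusted p = 0.430). In both genes the first shRNA library was only just above the controls. They were the 2 of 10 with both shRNA libraries higher, where 13.9% of all genes were, and Yap1 and Tead2 were the 2 of 10 with both lower, where 29.3% were, each by a log2 change within 0.04 of 0. Amotl2, at 37.1 and 36.3 against 29.1 and 37.3, overlapped here.

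**Figure D5:**
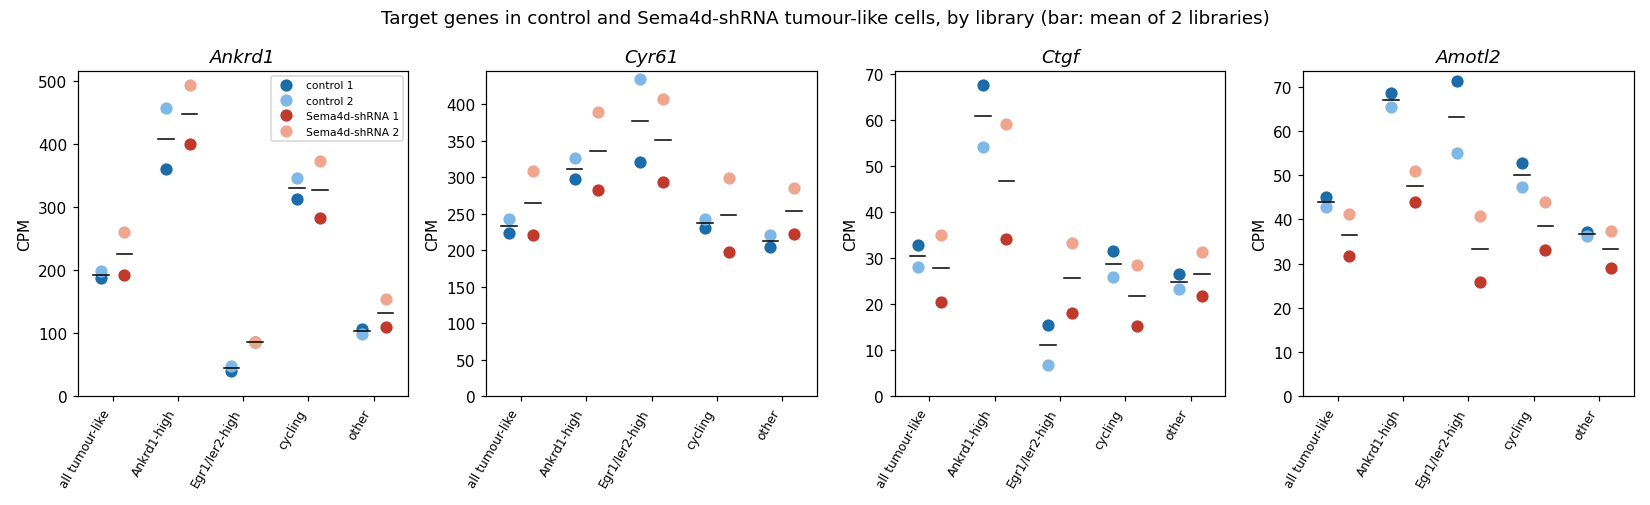
Levels of Ankrd1, Cyr61, Ctgf and Amotl2 in CPM in all tumour-like cells and in each state, 1 point per library, with a bar at the mean of the 2 libraries of a group. The shRNA libraries stand further apart than the controls in all tumour-like cells (Ankrd1 at 193 and 261 against 187 and 199), and Amotl2 lies below both controls in both shRNA libraries in Ankrd1-high cells (44.0 and 50.9 against 68.6 and 65.4).

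Whether a change differed between states was tested directly, for the 3 states against other tumour-like cells and for macrophages against tumour-like cells. Of 40 such tests 0 passed. Over all genes 13 of 13022 passed for Ankrd1-high, 4 of 12661 for Egr1/Ier2-high and 5 of 13436 for cycling cells, and 469 of 15021 for macrophages. The lowest adjusted p of a member was 0.0702 by edgeR's quasi-likelihood test, for Yap1 in macrophages against tumour-like cells (difference 0.73). The log2 change of Amotl2 was lower in Ankrd1-high than in other tumour-like cells by a difference of -0.38 (adjusted p = 0.406), that of Ctgf by -0.50 (adjusted p = 0.169), and that of Ankrd1 was higher in Egr1/Ier2-high cells by 0.71 (adjusted p = 0.588). No member was shown to change differently between states.

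In macrophages 6 of the 10 genes had both shRNA libraries above both controls, where 12.4% of all genes did, 0 had both below, where 31.5% did, and 0 passed, where 0.249% of 12452 did. At an unadjusted p under 0.05 the count was 5, where 1295 of all 12452 genes were. DESeq2 called 0 of the 10 and 67 over all genes. Cyr61 was at 14.0 and 14.5 CPM in the controls and 16.99 and 22.9 in the shRNA libraries (log2 change 0.56 ± 0.15, SE, adjusted p = 0.171), and Ankrd1 at 6.38 and 6.72 against 8.82 and 9.75 (0.58 ± 0.17, adjusted p = 0.235). The other 4 were Yap1, Wwtr1, Tead1 and Ctgf. All 6 were among the 8 genes in or near the range of the tumour markers in macrophages, and tumour-like cells were the larger share of the shRNA libraries. The tumour markers in the same macrophages moved in different directions. Krt8 was at 28.7 and 20.8 CPM in the controls and 36.0 and 35.8 in the shRNA libraries, both higher, and Krt18 overlapped, at 5.01 and 4.16 against 5.01 and 8.70. H19, at 10.2 and 12.7 against 8.39 and 6.12, and Prkcdbp, at 6.84 and 6.24 against 5.55 and 3.82, were lower in both shRNA libraries. Taken as a percentage of the tumour-like level, 7 of the 10 members and 3 of 5 tumour markers had both shRNA libraries above both controls. Of the 5, Krt7 had a mean of only 0.216 CPM in tumour-like cells, so its percentage cannot be read. How many of all genes did so was not counted. The part of free RNA in the 6 differences was not tested beyond these values. Axl, which macrophages did carry, had a log2 change of 0.08 ± 0.12.

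Among 33 further genes of the Hippo pathway and TEAD cofactors, 31 were tested in tumour-like cells and 0 passed, with 4 at an unadjusted p under 0.05 and 0 by DESeq2. Over all 14511 genes tested there, 1839 were under that unadjusted p and DESeq2 called 271. Their median log2 change was -0.01, against 0.01 over all genes, and 0 passed in any of the 6 comparisons. The largest without overlap were the kinase gene Taok3, at 28.0 and 24.4 CPM in the controls and 19.95 and 19.8 in the shRNA libraries (log2 change -0.35, adjusted p = 0.174), and Rassf1, a scaffold of the Hippo kinases, at 29.3 and 29.3 against 37.9 and 32.7 (0.32, adjusted p = 0.184). Of 22 further YAP and TAZ target genes 21 were tested in tumour-like cells and 0 passed, with 4 at an unadjusted p under 0.05, 0 by DESeq2 and a median log2 change of -0.0023. Crim1 was at 25.0 and 26.1 against 20.2 and 18.96 (-0.33, adjusted p = 0.147). In macrophages Areg, which encodes the EGF receptor ligand amphiregulin, was the 1 of 19 tested that rose, from 2.96 and 3.36 to 9.37 and 7.17 CPM (log2 change 1.46, adjusted p = 0.0224). Of all 12452 genes tested there 0.249% passed in either direction. The part of free tumour RNA in this low level was not tested. Of 17 genes of SRF and the actin cytoskeleton, a program that shares targets with YAP, 16 were tested in tumour-like cells and 0 passed there or in any other comparison, with 1 at an unadjusted p under 0.05, 0 by DESeq2 and a median of 0.06.

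The immediate early genes, the nearest neighbours of Cyr61 in single cells, were the only list besides the members with calls inside tumour states. Of 20 genes, 3 rose in Ankrd1-high cells, where 0.405% of all genes passed in either direction. Fos went from 190 and 193 CPM to 286 and 300 (log2 change 0.65, adjusted p = 0.00264), Ier2 from 218 and 231 to 301 and 307 (0.47, adjusted p = 0.0308) and Btg2 from 10.2 and 10.9 to 16.9 and 26.6 (1.11, adjusted p = 0.0307). Nr4a1 rose in other tumour-like cells, where 0.424% of all genes passed, from 9.27 and 10.8 to 16.4 and 18.99 (0.87, adjusted p = 0.0326). In tumour-like cells as a whole 0 passed with edgeR, 9 were under an unadjusted p of 0.05 and 5 passed with DESeq2, against the 1839 and 271 of 14511 genes given above, with a median log2 change of 0.23. Cyr61 in Ankrd1-high cells, at 297 and 326 against 282 and 389, did not separate the groups as these 3 genes did.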

How the data were processed

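Each deposited matrix holds raw UMI counts per gene and cell, which the authors wrote with PISA 1.0, per the file headers. STAR 2.5.1b and the builds GRCh38 and mm10 are named in the submitters' processing notes, without their role. For the annotation, the cell calling and strand, the step is not given in the sources used here. Cells under 300 genes or over 20% mitochondrial UMIs were dropped, which kept 45062 of 45220. Scrublet scores (scanpy 1.11.5) were used to mark doublets. Its own cut would have removed 0.766% and 1.51% of the control cells and 0% with the shRNA, so the 6% of cells with the highest scores were marked in every library and left out.

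For clustering, each cell was scaled to 10000 UMIs before the log. Leiden clusters at resolution 1 came from 15 neighbours in 30 principal components of 2000 variable genes. Clusters were named from marker lists, with scoring limits set after the data were seen, and those led by mitochondrial genes, doublets or mixed markers stayed unnamed. Tumour-like cells were clustered again at resolution 1 and 2. A cluster was Ankrd1-high with Ankrd1 among its 10 top genes, Egr1/Ier2-high with both genes among its 20 top genes, and cycling with 3 of 8 cycling markers among them. Egr1/Ier2-high cells came from resolution 2, without cells already in the other states.

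UMIs were summed per library and class or state and tested with edgeR 4.0.16 (filterByExpr, TMM, quasi-likelihood test, Benjamini-Hochberg adjustment over all genes tested, threshold 0.05). A fit used the 4 libraries with no covariate. The script was tested on simulated data. Alternatives were DESeq2 1.42.0, its size factors, no filter, a replicate block, each library left out, doublets kept, and other clusterings. The tests between states were chosen after values were seen. Groups of 2 allow a smallest two-sided exact permutation p of 0.333, so none was run. Named genes were the members, each listed gene past the threshold, up to 4 more per list with the largest change without overlap, and the 8 genes most like Ankrd1, Ctgf and Cyr61, of which some are not reported here. The members and lists were chosen with earlier results of these data known. Coordinates are GRCm38 (GENCODE M21), matched by symbol.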

Additional observations from a re-analysis of the deposited data

How the results depend on the processing

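The 10 genes gave 60 log2 changes over the 6 comparisons and 618 values under alternatives, of which 589 stayed on their side of the threshold with no change of sign beyond their error. The sign changed in 56, of which 5 were of values called or larger than their error. A call appeared in 19, of them 13 without 1 shRNA library, and was lost in 5. Genes called over all genes tested numbered 70 in tumour-like, 45 in Ankrd1-high, 22 in Egr1/Ier2-high, 27 in cycling, 58 in other tumour-like and 31 in macrophage-like cells. Leaving out each library in turn gave 26 to 679, 27 to 134, 28 to 44, 33 to 310, 0 to 711 and 17 to 385 in the same order; in these fits the lone library was assumed to vary like the other group. The 0 came without the first control library, with 832 genes at an unadjusted p under 0.05. With no filter on low counts the counts were 759, 149, 47, 211, 659 and 413, and with DESeq2 they were 271 in tumour-like, 57 in cycling, 199 in other tumour-like and 67 in macrophage-like cells. Labels pair no libraries: same-numbered libraries share only a number, and the correlation of their deviations was -0.0759 to 0.119. With a replicate block the counts were 86 in Ankrd1-high, 10 in Egr1/Ier2-high, 59 in cycling and 36 in other tumour-like cells, and Ankrd1 in Egr1/Ier2-high cells did not pass (adjusted p = 0.180).

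States from the resolution 2 clusters alone, chosen after seeing the data, gave 53 genes in Egr1/Ier2-high and 158 in other tumour-like cells, and log2 changes there of -0.037 for Ankrd1 and -0.084 for Ctgf in Egr1/Ier2-high and -0.0012 for Wwtr1 in cycling cells. Without one library each, Cyr61 ran from -0.038 to 0.48 in tumour-like and from -0.11 to 0.36 in Ankrd1-high cells, negative without the second shRNA library. Clustering without the members and lists gave 29 genes in Ankrd1-high cells, and levels of 347 for Ankrd1 and 272 for Cyr61; it gave no Egr1/Ier2-high cluster, so that alternative has no value there. In cells thinned to 2000 UMIs, mean r was 0.133 for Cyr61 and Ctgf, 0.0871 for Ankrd1 and Ctgf, 0.0869 for Ankrd1 and Amotl2, 0.0519 for Cyr61 and Amotl2 and 0.0504 for Ctgf and Amotl2, each lower than at 4000 with fewer UMIs per cell. The cause of the other shifts was not tested. Depth limits most the Egr1/Ier2-high cells of the controls and the rare host classes.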

Other observations

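Tead1 and Lats2 had the nuclear RNA Malat1 as the gene most like them in thinned tumour-like cells (mean r over the 4 libraries of 0.135 for Tead1), and both were highest in the small cluster that Malat1 and Neat1 lead. On log2 CPM without TMM scaling, the gap between the 2 shRNA libraries was wider than that between the group means for 10 of the 10 genes in cycling cells. This held for 9 in other tumour-like, 7 in Ankrd1-high, 6 in Egr1/Ier2-high and 5 in macrophage-like cells, and was not counted over all genes.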
